A study of Rattus rattus with 23 samples.

Results

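Heme oxygenase, ferritin and metallothionein handle heme, iron and zinc inside cells. The genes described here are Hmox1, Hmox2, Blvra, Blvrb, Fth1, Ftl1, Tfrc, Mt2A and Slc30a1. They were chosen by name, for what their proteins do, with earlier results of these arrays known. These 9 genes are measured by 10 of the 31099 probe sets in the deposited table, a probe set being the group of short probes that reports on a transcript, and 8 of the 10 passed a filter on low signal. The filter kept the 19822 probe sets whose signal exceeded the array's median on 3 or more of the 23 arrays. The Slc30a1 probe set and the second Tfrc probe set did not pass, and their levels are given at the end without a test against other genes.

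Heme oxygenase opens the heme ring and releases biliverdin, carbon monoxide and iron. Hmox1 is the inducible form and Hmox2 the constitutive form, and the biliverdin reductases Blvra and Blvrb turn biliverdin into bilirubin. Free iron is stored inside the ferritin shell, built from heavy chains (Fth1), which oxidise the iron, and light chains (Ftl1), which help lay down the mineral core, while the transferrin receptor Tfrc brings iron in from the blood. Metallothioneins such as Mt2A are small cysteine-rich proteins that bind zinc and copper, and Slc30a1 pumps zinc out of the cell. Hmox1 and ferritin genes are known targets of the transcription factor NRF2, and metallothionein and Slc30a1 genes of the zinc sensor MTF-1. Hydrogen sulfide (H2S) is a gas that blocks cytochrome c oxidase, itself a heme and copper enzyme, and nasal epithelium is a known target of the inhaled gas in rats.

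Male Sprague-Dawley rats breathed air or 200 ppm H2S through the nose only, for 3 h a day, and RNA from respiratory lining of the nose, cut out by laser where damage and regrowth occur, was amplified and hybridised to Affymetrix rat arrays, with 1 array for each animal. Times are counted from the start of the initial exposure. The H2S groups were taken at 3 h (4 animals, numbered 3 to 6 in the labels), 6 h (3 animals, 8 to 10) and 24 h (4 animals, 11 to 14), and after 5 days of exposure at 144 h (4 animals, 23 to 26). The air groups were taken at 24 h (4 animals, 15 to 18) and 144 h (4 animals, 19 to 22). No air group stands at 3 h or 6 h, so both H2S groups were compared with air at 24 h, and time of sampling and treatment cannot be told apart there. The labels give the animals' age as 60 days, which is not the age in the submitters' design text. They also list 200 ppm for the air animals, and the air groups here follow the titles. For animals 6, 14 and 18 the treatment field lists 5 days of exposure, against the time in their title, and the title was followed.

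All values are log2(signal + 16), where the signal is the deposited intensity, and a difference of 1 is a doubling. Levels of different probe sets are not comparable with each other, so every comparison below is of the same probe set between animals. Every array had been scaled to the same trimmed mean, between 500.05 and 500.17. The arrays of animal 18 (air, 24 h) and animal 22 (air, 144 h) stood apart, with median correlations to the other arrays of 0.408 and 0.685, against at least 0.82 for the other 21. RNA integrity numbers, a score of RNA degradation, were 5.3 and 7.2 for the 2 H2S animals at 3 h that have one. They were 2.6 to 5.1 for the 3 air animals at 24 h that have one. In H2S they were 5.8 and 6.4 for the 2 animals at 6 h that have one, and 2.6 to 10 at 24 h. At 144 h the groups also differed, with 1.7 to 5.1 in H2S and 5.1 to 6.9 in air. Fits with this number as a covariate used only the 19 arrays that have it, and are given below for some results. Beyond these fits the part of RNA quality was not tested. The epithelial genes Epcam, Krt8 and Krt18 were high on every array, with lowest values of 11.22, 11.71 and 11.82. The bone gene Ibsp and the stromal gene Col1a1 were high as well, with lowest values of 12.01 and 13.23, as was the nasal gland gene Obp1f, at 14.95 or more. Other markers of these types were low. Of those on the array, 13 of 14 for respiratory epithelium and 6 of 8 for cartilage and bone passed the filter. So did 9 of 10 for stroma and vessel and 5 of 7 for nasal gland. RNA typical of bone, stroma and glands was thus present beside that of epithelium, and in such bulk samples more cells of a type and more RNA per cell cannot be told apart.

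Mt2A rose at 3 h of H2S. Its level was 11.82, 12.54, 12.76 and 13.82 in animals 3, 4, 5 and 6, against 9.76, 9.51, 9.02 and 10.997 in air animals 15, 16, 17 and 18 at 24 h. The lowest exposed animal lay above the highest air animal. The change was 2.91 on the log2 scale (SE 0.508, 95% interval 1.86 to 3.97, n = 4 and 4, limma adjusted p = 0.0222), and on the linear scale the median signal was 6429 against 781, a ratio of 8.23. By the size of its p it ranked 8 of all 19822 probe sets tested. Animal 6 had the highest value of all 23 arrays for this gene. Without animal 18, whose array stands apart, the change was 3.30 (adjusted p = 0.00483). On the 19 arrays with an RNA integrity number it was 2.34 (limma adjusted p = 0.409), and 2.56 with that number as a covariate (limma adjusted p = 0.770). In neither of these 2 fits was the threshold passed. The call was lost on leaving out animal 5, 6, 15, 16 or 17, with changes between 2.55 and 2.90 and adjusted p up to 0.166, and kept on leaving out animal 3, 4 or 18.

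Hmox1 showed the same size of difference with a wider spread, and did not pass the threshold on all arrays. The exposed animals 3, 4, 5 and 6 had levels of 10.34, 11.15, 11.14 and 12.90 at 3 h, and air animals 15, 16, 17 and 18 had 6.72, 7.63, 8.27 and 10.68. Of the 4 exposed animals, 3 lay above all air animals, and animal 3 lay below air animal 18 but above the other 3. The change was 3.06 (SE 0.675, 95% interval 1.66 to 4.46, n = 4 and 4, limma adjusted p = 0.0991), rank 32 by p. On the linear scale the median signal was 2250 against 238, a ratio of 9.47. Leaving out animal 18 gave 3.84 (adjusted p = 0.00483), the only animal of the 8 whose removal brought Hmox1 past the threshold. Animal 6 again had the highest value of all 23 arrays.

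**Figure D1:**
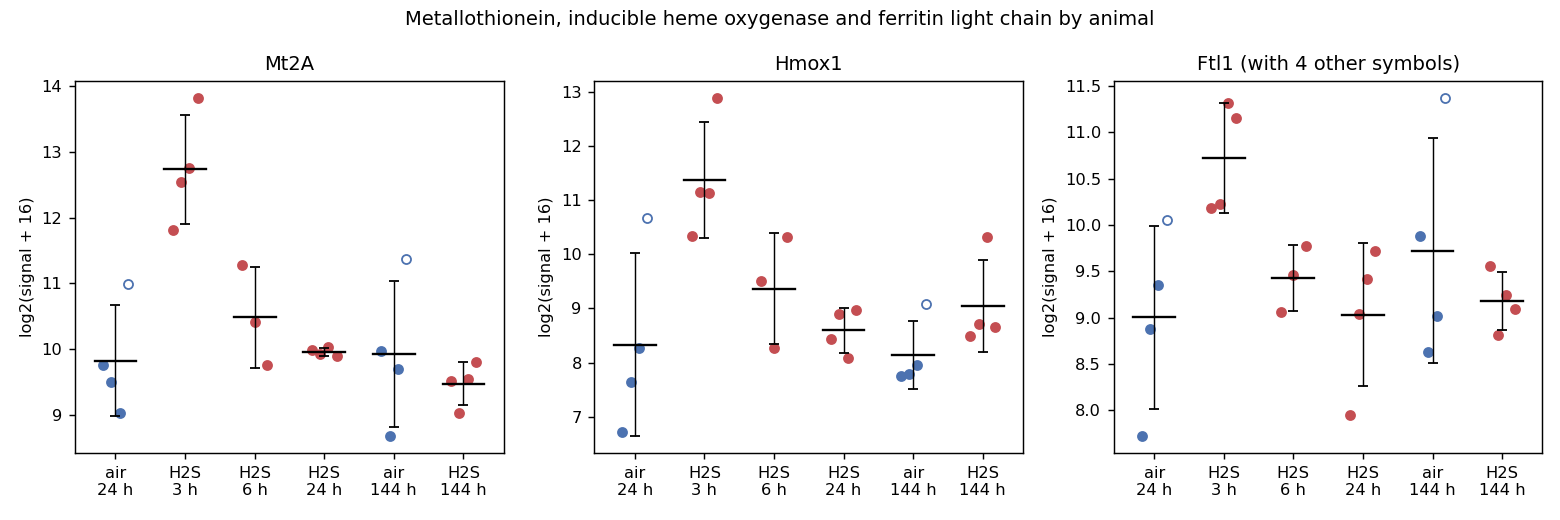
Level of Mt2A, Hmox1 and Ftl1, as log2(signal + 16) on the vertical axis, in each animal of the 6 groups (red, H2S; blue, air; open circles, animals 18 and 22, whose arrays stand apart). Horizontal lines are group means and bars the SD. For Mt2A the 4 animals at 3 h of H2S lie between 11.82 and 13.82, above every other animal of the study, and by 24 h the 4 exposed animals lie between 9.90 and 10.03.

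Among the ferritin chains, Ftl1 had the larger difference at 3 h. Its probe set is assigned to Ftl1 together with Ftl1-ps14, LOC100362384, LOC100360087 and Ftl1l2, so it may report on several near-identical sequences. The exposed animals 3, 4, 5 and 6 had 10.19, 10.23, 11.31 and 11.15, and air animals 15, 16, 17 and 18 had 7.72, 8.88, 9.35 and 10.06. The groups did not overlap, with a gap of less than 0.2 between the lowest exposed animal and air animal 18. The change was 1.72 (SE 0.538, 95% interval 0.60 to 2.83, n = 4 and 4), which did not pass the adjustment over all probe sets (limma adjusted p = 0.355). It was 0.78 on the 19 arrays with an RNA integrity number, which leave out animals 5, 6 and 15 of these groups, and 0.63 with that number as a covariate. The heavy chain Fth1, whose probe set is shared with Fth1-ps5, had 15.11, 15.96, 15.65 and 16.21 in exposed animals and 14.94, 15.77, 15.14 and 14.73 in air animals. Its groups overlapped, and the 95% interval of its change of 0.59 included 0 (SE 0.374, 95% interval -0.19 to 1.36, limma adjusted p = 0.599).

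The constitutive heme oxygenase Hmox2 had 8.32, 8.74, 8.64 and 9.15 in exposed animals 3 to 6 at 3 h and 7.88, 8.38, 7.97 and 6.68 in air animals 15 to 18. All but animal 3 of the exposed lay above all air animals. The change was 0.98 (SE 0.381, 95% interval 0.20 to 1.77, limma adjusted p = 0.433), and it was 0.64 without animals 18 and 22 (adjusted p = 0.483). The biliverdin reductases showed no such difference. Blvra had 8.26, 8.26, 7.57 and 6.84 in exposed and 8.10, 8.23, 8.03 and 6.50 in air animals, a change of 0.02 (95% interval -1.12 to 1.16). Blvrb had 8.66, 8.59, 8.37 and 9.11 in exposed and 8.04, 8.27, 8.99 and 10.47 in air animals, a change of -0.26 (95% interval -1.53 to 1.01). These intervals leave room for a doubling or a halving of either reductase. Tfrc was spread most among exposed animals at 3 h, with 10.89, 13.02, 12.59 and 10.05 against 11.92, 11.80, 11.55 and 10.35 in air, and its change was 0.23 (95% interval -0.91 to 1.37). In animal 6, where Mt2A, Hmox1, Hmox2 and Fth1 had their highest values of the 3 h group, Blvra and Tfrc had their lowest.

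**Figure D2:**
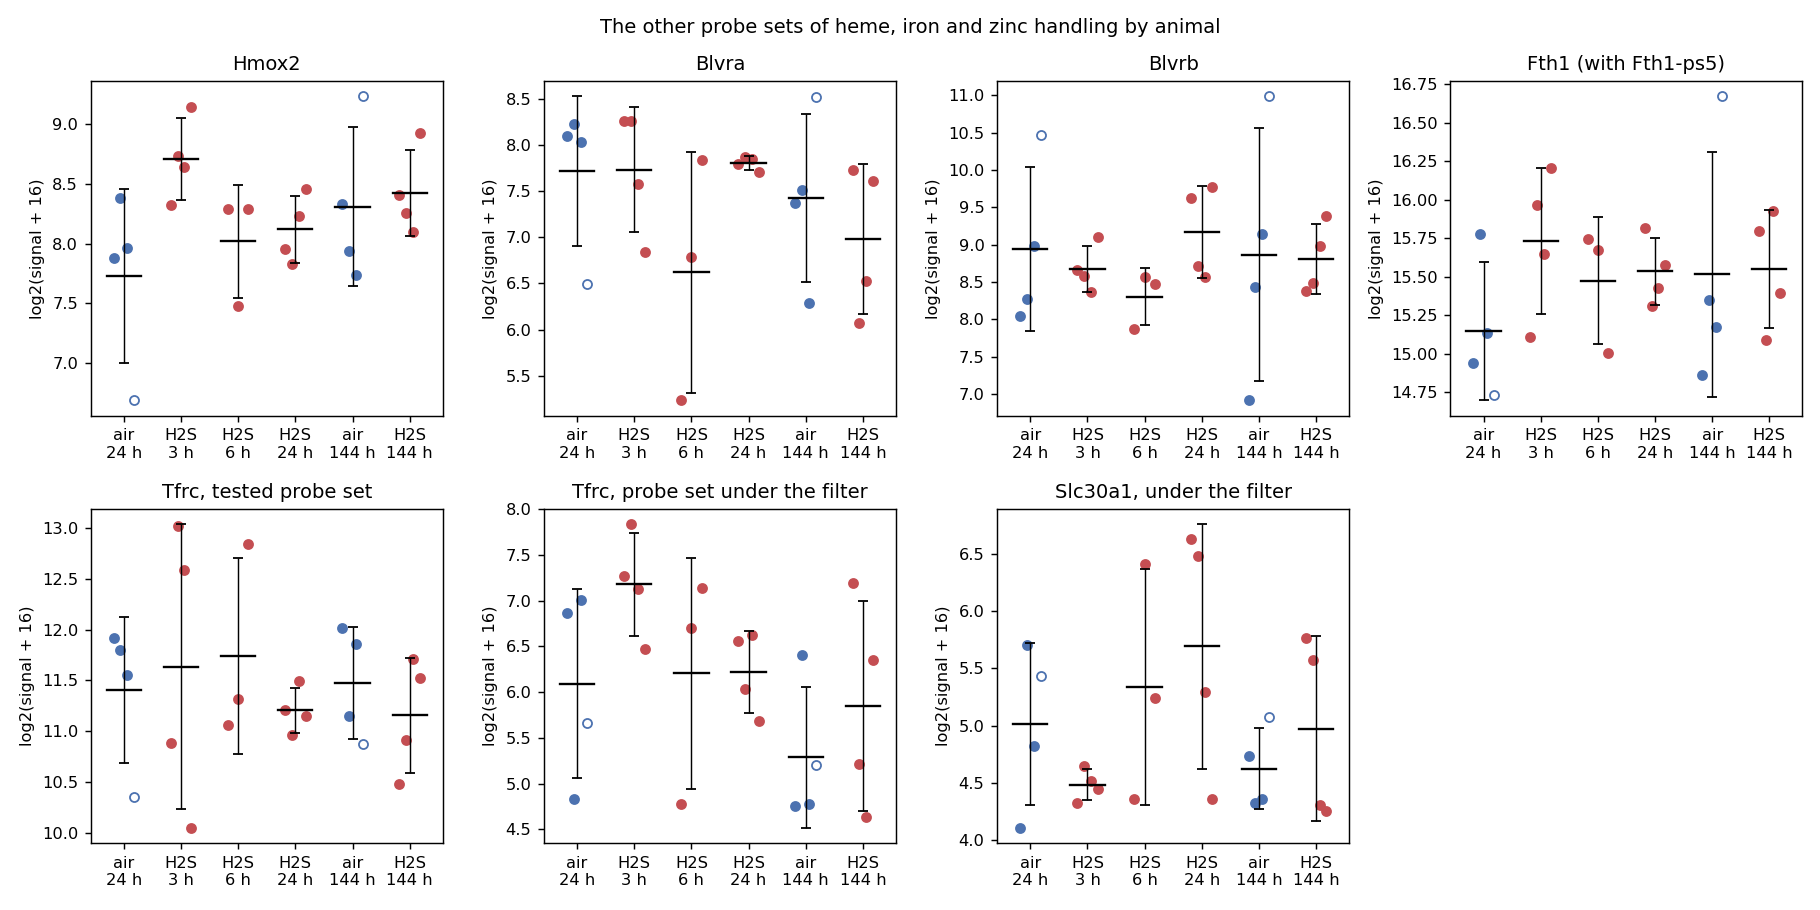
Level of the other 7 probe sets, as log2(signal + 16) on the vertical axis, by animal and group (red, H2S; blue, air; open circles, animals 18 and 22; lines, group means; bars, SD). The groups overlap at 3 h for Hmox2, Blvra, Blvrb, Fth1 and both Tfrc probe sets, and Slc30a1 lies between 4.11 and 6.62 on all 23 arrays.

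In all, 1 of the 8 tested probe sets of these genes passed the threshold at 3 h (limma with Benjamini-Hochberg adjustment over 19822 probe sets, adjusted p under 0.05), against 16 of all probe sets, or 0.0807%. Unadjusted, 4 of the 8 had p under 0.05, and so did 1942 of all. Of the 8, 7 had positive changes, with a median change of 0.79, beside 55.4% positive and a median of 0.09 over all probe sets. The 8 were chosen by name with earlier results known, so these counts describe them and are no independent evidence.

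**Figure D3:**
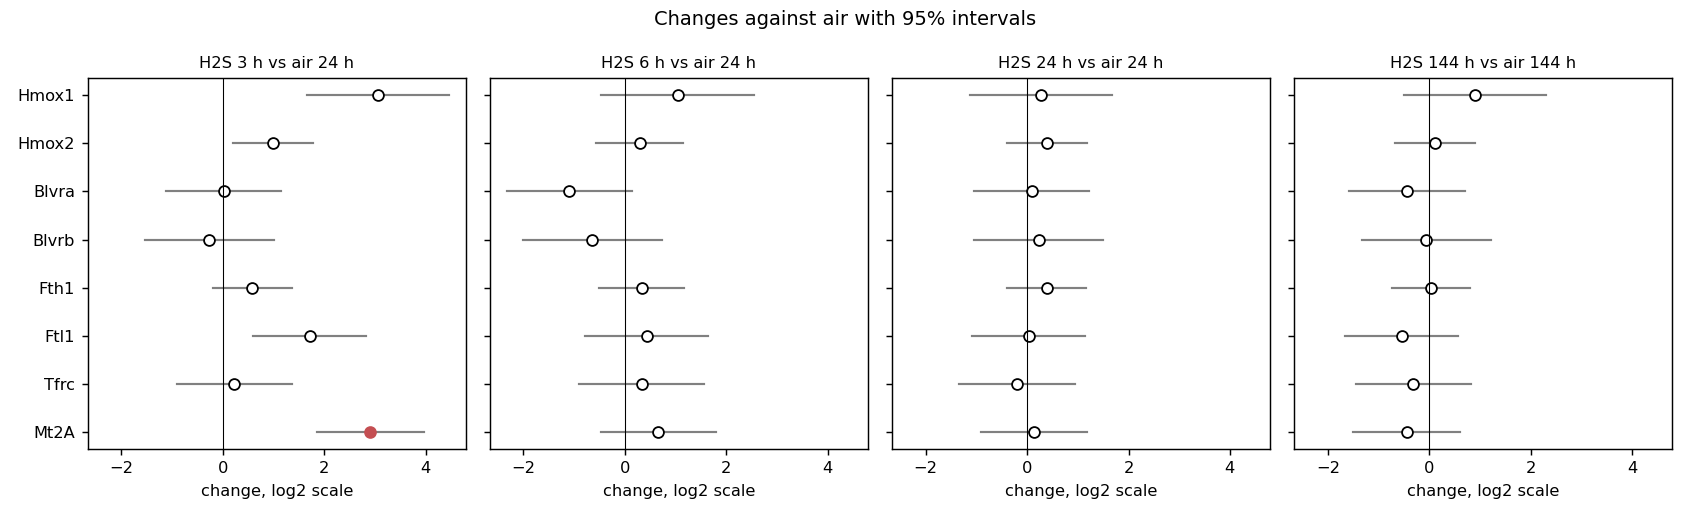
Change of each tested probe set against air on the log2 scale (horizontal axis), with 95% intervals (n = 4 and 4, or 3 and 4 at 6 h), in 4 comparisons; red marks an adjusted p under 0.05. Mt2A at 3 h is the marked point, at 2.91, and the intervals of all 8 probe sets include 0 at 6 h, 24 h and 144 h.

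The levels seen at 3 h were not found at 6 h. At 6 h Mt2A was 11.28, 10.41 and 9.76 in animals 8, 9 and 10, and Hmox1 was 9.51, 8.28 and 10.32. Every 6 h animal lay below every 3 h animal for both genes. The difference between 6 h and 3 h was -2.25 for Mt2A (SE 0.549, limma adjusted p = 0.502) and -2.01 for Hmox1 (SE 0.729, adjusted p = 0.976). For Hmox1 the groups lay close, with 10.343 the lowest at 3 h and 10.316 the highest at 6 h, and the difference was -0.83 on the 19 arrays with an RNA integrity number, which leave out animals 5, 6 and 9 of these groups. Ftl1 (-1.29, SE 0.582), Blvra (-1.11, SE 0.593) and Hmox2 (-0.69, SE 0.411) were lower at 6 h as well. Of the 8, 1 had a positive change, beside 48.6% of all probe sets. None of the 8 passed the threshold between 6 h and 3 h, where 1 of all probe sets did (0.00504%), and 3 of the 8 had an unadjusted p under 0.05, as had 834 of all.

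At 24 h Mt2A was 9.98, 9.93, 10.03 and 9.90 in animals 11 to 14, a spread of 0.06 (SD) where air animals of the same time had 0.84. It was lower than at 3 h by 2.78 on the log2 scale (change -2.78, SE 0.508, limma adjusted p = 0.0263), and the groups did not overlap. This was the only one of the 8 to pass between 24 h and 3 h, against 15 of all probe sets (0.0757%). With the RNA integrity number as covariate the Mt2A change was -2.29 (limma adjusted p = 0.527), not past the threshold. The call was kept only on leaving out animal 3 (change -3.08) and lost on leaving out animal 4, 5, 6, 11, 12, 13 or 14, with changes between -2.84 and -2.41 and adjusted p up to 0.171. Hmox1 at 24 h was 8.43, 8.89, 8.09 and 8.96, below every 3 h animal, with a change of -2.79 (SE 0.675, adjusted p = 0.168). It was past the threshold without animals 18 and 22 (-2.79, adjusted p = 0.0191). Those are air animals, in neither group, so their removal left the change as it was and lowered the SE to 0.520. Ftl1 at 24 h was 7.95, 9.04, 9.42 and 9.72, a change of -1.69 from 3 h (SE 0.538, adjusted p = 0.563). The comparisons of 3 h with air, 6 h and 24 h share the same 4 animals at 3 h. Between 24 h and 6 h none of the 8 passed, against 2 of all (0.0101%; 0 of the 8 and 607 of all at an unadjusted p under 0.05). The widest changes there were in the reductases, 1.18 for Blvra (95% interval -0.05 to 2.41) and 0.87 for Blvrb (95% interval -0.51 to 2.24).

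Against air at 24 h, no probe set of these genes passed at 6 h or 24 h. At 6 h 1 of all probe sets passed (0.00504%), and 0 of the 8 and 1151 of all had an unadjusted p under 0.05. Hmox1 was higher than the air mean by 1.04 (95% interval -0.47 to 2.56) and Mt2A by 0.66 (95% interval -0.48 to 1.80), and animal 8 lay above all air animals for Mt2A. Without air animals 18 and 22 the changes were 1.83 for Hmox1 (adjusted p = 0.891) and 1.05 for Mt2A (adjusted p = 0.9994). Blvra was at 5.23, 6.79 and 7.84 in animals 8, 9 and 10, its lowest group mean in the study, with a change of -1.10 (95% interval -2.33 to 0.13). At 24 h 2 of all probe sets passed (0.0101%), and 0 of the 8 and 1603 of all had an unadjusted p under 0.05. The changes of the 8 ran from -0.20 for Tfrc to 0.39 for Hmox2, with 0.14 for Mt2A (95% interval -0.92 to 1.19) and 0.27 for Hmox1 (95% interval -1.13 to 1.67). Without animals 18 and 22 they were 0.53 for Mt2A and 1.05 for Hmox1 (adjusted p = 0.860 and 0.788), and on the 19 arrays with an RNA integrity number the Hmox1 change was -0.27.

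After 5 days of exposure, at 144 h, Hmox1 was 8.50, 8.72, 10.31 and 8.66 in animals 23 to 26 and 7.75, 7.78, 7.96 and 9.08 in air animals 19 to 22. The groups overlapped through air animal 22, which lay above all exposed animals but animal 25. The change was 0.90 (SE 0.675, 95% interval -0.50 to 2.30, limma adjusted p = 0.762), and 1.22 without animals 18 and 22 (adjusted p = 0.381). Mt2A was 9.52, 9.03, 9.54 and 9.81 in exposed and 9.96, 8.67, 9.69 and 11.37 in air animals, a change of -0.45 (95% interval -1.50 to 0.60), and 0.03 without animals 18 and 22. Ftl1 was 9.56, 8.82, 9.24 and 9.10 in exposed and 9.88, 8.62, 9.01 and 11.37 in air animals, a change of -0.54 (95% interval -1.66 to 0.57), and 0.0049 without those animals. Animal 22 had the highest value of all 23 arrays for Ftl1, Fth1, Hmox2, Blvra and Blvrb. No probe set passed the limma threshold at 144 h, of these genes or of all (0%, with 0 of the 8 and 1546 of all at an unadjusted p under 0.05). With the RNA integrity number as covariate the changes were 0.93 for Hmox1 (limma adjusted p = 0.730) and -0.64 for Mt2A (limma adjusted p = 0.799).

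Between the air groups at 144 h and 24 h the 95% intervals of all 8 included 0, with changes from -0.29 for Blvra to 0.72 for Ftl1. By limma 0% of all probe sets were called, and 0 of the 8 and 1660 of all had an unadjusted p under 0.05. Blvra was at -1.06 without animals 18 and 22, 1 in each of these groups (adjusted p = 0.9997), and Ftl1 ran from 0.17 to 1.09 on leaving out 1 animal. The difference between the exposure effect at 144 h and that at 24 h was 0.63 for Hmox1 (95% interval -1.35 to 2.61) and -0.59 for Mt2A (95% interval -2.08 to 0.91). No probe set was called in that interaction (limma, 0%; 0 of the 8 and 929 of all at an unadjusted p under 0.05).

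Ordered by group mean, Mt2A stood at 12.73 at 3 h, 10.48 at 6 h, 9.96 at 24 h, 9.92 in air at 144 h, 9.82 in air at 24 h and 9.47 in H2S at 144 h. Hmox1 stood at 11.38 at 3 h, 9.37 at 6 h, 9.05 in H2S at 144 h, 8.59 at 24 h, 8.33 in air at 24 h and 8.14 in air at 144 h. For both genes only the step from 3 h to 6 h was larger than the larger SD of the neighbouring groups, and all later neighbours lay within it. For Hmox2, Ftl1, Blvra, Blvrb, Fth1 and the tested Tfrc probe set no step between neighbours exceeded it.

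The 2 probe sets under the filter stayed low. Slc30a1, the zinc exporter, was above the median of its array on 0 of 23 arrays, and its group means ran from 4.48 in H2S at 3 h to 5.69 in H2S at 24 h. In the 3 h animals, where Mt2A was high, it lay between 4.33 and 4.65. The low signal gives no usable measure of change. The second Tfrc probe set was above its array median on 1 of 23 arrays. Its 3 h animals lay between 6.48 and 7.84 and its air animals at 24 h between 4.83 and 7.004, a change of 1.09 in the fit of all probe sets without a filter (SE 0.606, adjusted p = 0.627), against 0.23 for the tested Tfrc probe set.

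The other genes of the same pathways were read from lists drawn up for this purpose, also with earlier results known, and the counts below give positive changes first and then those past the threshold. Over the 11249 genes with a tested probe set, the median change at 3 h against air was 0.14 and 59.3% were positive. Other targets of NRF2 had the highest median of the 6 pathway lists: 18 of 19 were positive, with a median of 0.80, and 1 rose past the threshold, Akr1b8, an aldo-keto reductase. It lay between 13.07 and 15.03 at 3 h and between 9.20 and 10.47 in air at 24 h (change 3.89, SE 0.727, limma adjusted p = 0.0401). The Akr1b8 call was kept only without animal 4, and lost without animal 3, 5, 6, 15, 16, 17 or 18, with changes between 3.46 and 4.12. Without animals 18 and 22, 16 of 19 were positive, with a median of 0.99, and Akr1b8 was again the only call (4.002, adjusted p = 0.0133). The median over all tested was then -0.005 at 3 h, -0.018 at 24 h and -0.023 at 144 h. At 3 h 24 of all tested passed the threshold in that fit. At 144 h against air 17 of 19 were positive, with a median of 0.48 beside 0.01 over all genes and 0 calls; the cystine transporter Slc7a11 (1.90, adjusted p = 0.580) and the quinone reductase Nqo1 (1.42, adjusted p = 0.584) had the smallest p. That median was 0.90 without animals 18 and 22, beside -0.023 over all tested.

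Among transcription factors and sensors that act on these genes, 10 of 11 were positive at 3 h, with a median of 0.44 and 0 calls. The stress factor Atf4 (1.09, SE 0.377, adjusted p = 0.393) and the small Maf protein Maff, a partner of NRF2 (1.49, SE 0.541, adjusted p = 0.400), had the smallest p. Without animals 18 and 22, Maff was at 2.18 (adjusted p = 0.0149), past the threshold, in a fit where 24 of all tested passed. Heme synthesis had 6 of 8 positive at 3 h, with a median of 0.25 and 0 calls, led by the synthases of its opening step, Alas2 (1.22, adjusted p = 0.505) and Alas1 (0.64, adjusted p = 0.590). This count was 4 of 8, with a median of -0.06, without animals 18 and 22, beside a median of -0.005 over all tested. All 8 were positive at 24 h and at 144 h, with medians of 0.63 and 0.43 beside 0.14 and 0.01 over all genes and 0 calls; without animals 18 and 22, 7 of 8 were positive at each time. Ferrochelatase, Fech, which puts the iron into heme, had the smallest p of them at 24 h (1.55, SE 0.707, adjusted p = 0.612). In air at 24 h it was 10.50, 10.62, 9.94 and, in animal 18, 6.01, and without animals 18 and 22 the change was 0.46.

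Heme transport and binding had 9 of 13 positive at 3 h (median 0.39, 0 calls), with Lrp1, a receptor that takes up heme bound to hemopexin, at 1.28 (adjusted p = 0.551) and the heme transporter Flvcr2 at -1.08 (adjusted p = 0.591). Both were nearer 0 without animals 18 and 22, at 0.21 and -0.29. The list's median was then 0.07, beside -0.005 over all tested. Genes of iron uptake, export, storage and sensing had 17 of 23 positive (median 0.30, 0 calls). The siderophore-binding protein Lcn2 (1.60, adjusted p = 0.503) and the metalloreductase Steap1 (0.77, adjusted p = 0.522) had the smallest p. This count was 10 of 23 without animals 18 and 22, with a median of -0.04, beside -0.005 over all tested. Zinc and copper handling had 18 of 28 positive, with a median of 0.12, below that of all genes, and 0 calls. Mt1, the metallothionein closest to Mt2A, lay between 8.34 and 9.87 at 3 h and between 7.41 and 10.10 in air at 24 h. Its groups overlapped (change 1.01, SE 0.508, adjusted p = 0.524), and at 24 h its change was -1.18 (adjusted p = 0.612). Air animal 18 was the highest, at 10.10, and without animals 18 and 22 the changes were 1.61 and -0.58. The zinc transporter Slc30a7 was at 1.01 at 3 h (adjusted p = 0.553), and at 0.25 without animals 18 and 22.

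**Figure D4:**
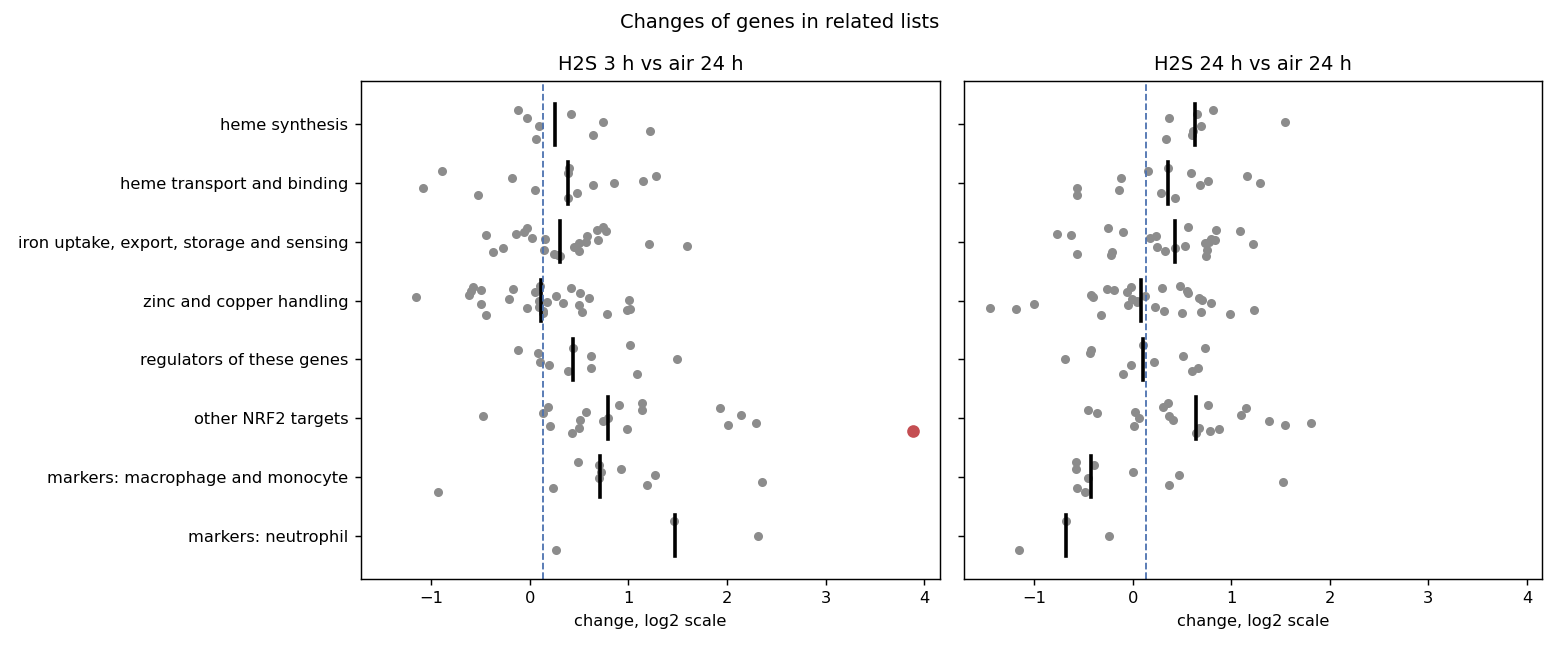
Change of each gene of the related lists against air at 24 h, on the log2 scale (horizontal axis), in the H2S groups taken at 3 h and 24 h. Grey points are genes, the red point (Akr1b8) has an adjusted p under 0.05, black bars are list medians and the dashed line is the median of all genes tested; the median of other NRF2 targets was 0.80 at 3 h, against 0.14 for all genes.

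Markers of some cell types were mostly higher in the 3 h group and those of others mostly lower. Of the macrophage and monocyte markers, 9 of 10 were positive at 3 h (median 0.71, 0 past the threshold), led by Cd14 (2.35, adjusted p = 0.302). Their mean level, relative to the mean of all genes on the array, was 0.19 to 1.06 at 3 h and -0.47 to 0.27 in air at 24 h. Their median was 0.46 and Cd14 was at 1.46 without animals 18 and 22. Of the 12 on the array, C1qb and Itgam did not pass the filter, while Csf1r, Cd68 and Cd163 did. Group means of the latter at 3 h were 9.19, 9.82 and 9.04 against 8.47, 8.55 and 8.35 in air. Adgre1 also passed and was lower at 3 h, at 7.89 against 8.82. C1qb and Itgam were lower as well, at 5.77 and 5.00 against 6.35 and 5.69. All 3 tested neutrophil markers were positive (median 1.47, 0 past the threshold), led by S100a8 (2.31, adjusted p = 0.472). Their mean level was -0.90 to -0.02 at 3 h and -2.88 to -0.26 in air. Their median change was 2.14 without animals 18 and 22. Csf3r and Cxcr2 did not pass the filter. Respiratory epithelial markers were positive in 11 of 13 (median 0.80, 0 past the threshold), led by the keratin Krt19 (2.97, adjusted p = 0.0770), with a mean level of 2.02 to 3.37 at 3 h and 1.35 to 2.03 in air. Krt19 was past the threshold without animals 18 and 22 (2.90, adjusted p = 0.0323), in a fit where 24 of all tested passed. Positive changes were fewer among olfactory markers (2 of 8, median -0.88) and nasal gland markers (1 of 5, median -0.29). They were also fewer among stroma and vessel markers (3 of 9, median -0.07) and cartilage and bone markers (1 of 6, median -0.30). In these lists 0 were past the threshold. Without animals 18 and 22 their counts were 2 of 7, 2 of 5, 4 of 9 and 2 of 6. The medians were then -0.18, -0.20, -0.20 and -0.20, beside -0.005 over all tested. Of 2 tested red cell markers, Alas2 was at 1.22 (adjusted p = 0.505) and hemoglobin Hbb at -0.39 (adjusted p = 0.770). Without animals 18 and 22 both were positive, at 0.87 and 0.06. The part of these cell types in the changes of Mt2A, Hmox1 and Ftl1 was not tested.

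Over the 23 arrays, Hmox1 correlated with Mt2A (Pearson r = 0.80) and Ftl1 (r = 0.71), and Mt2A with Ftl1 (r = 0.73). These values rest in part on the 3 h group: without it they were 0.40, 0.48 and 0.50. The 6 genes most like Hmox1 by Pearson r over 23 arrays were Hspa1a (0.865), Gprc5a (0.855), Hspb1 (0.849), Anxa3, Pvr and Zfand2a, and the lowest of these was 0.844. Hspa1a and Hspb1 encode heat shock proteins; Hspa1a had a mean of 12.82 at 3 h and 9.94 in air at 24 h. Without the 3 h group, r with Hmox1 was 0.694 for Hspa1a and 0.774 for Gprc5a. The 6 most like Mt2A were Tnfrsf12a (0.851), Zfand2a (0.849), Pvr (0.842), Plat, Angptl4 and Fosl1, the lowest at 0.806. Without the 3 h group r with Mt2A was 0.430 for Tnfrsf12a and 0.232 for Zfand2a. Pvr and Zfand2a stood in both sets. The correlations are descriptions, since all values of an array share its RNA, amplification and scaling.

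**Figure D5:**
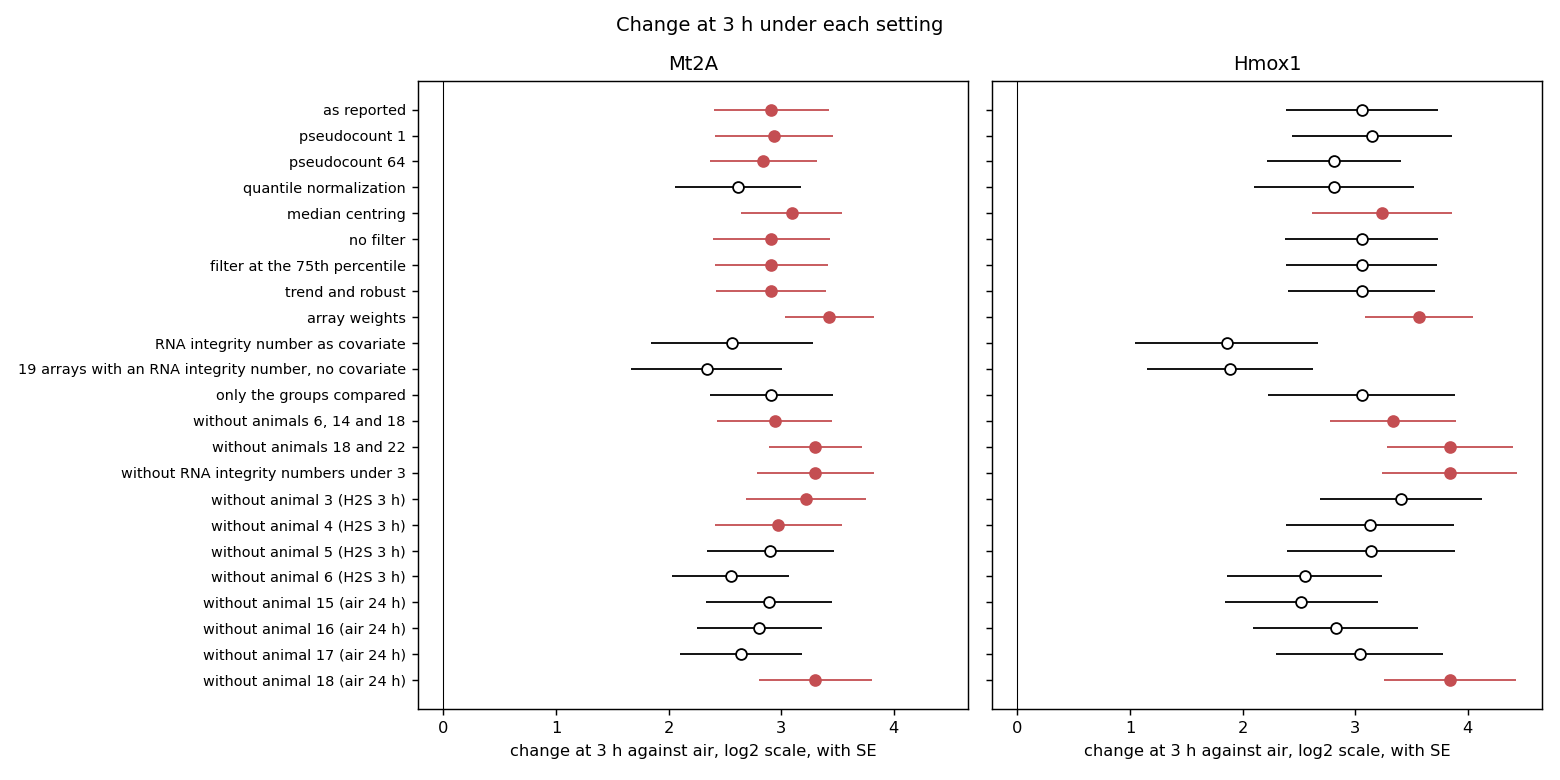
Change of Mt2A and Hmox1 at 3 h of H2S against air at 24 h, on the log2 scale (horizontal axis, bars are the SE), as reported, under 14 other settings of the processing and without each of the 8 animals compared. Red points have an adjusted p under 0.05. The lowest value is 1.86, for Hmox1 with RNA integrity as covariate, and Hmox1 is past the threshold in 5 of the 14 settings and without animal 18.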

How the data were processed

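The deposited values are signal intensities on a linear scale, 1 per probe set and array, scaled by the authors to a common trimmed mean (2% trimmed at each end gave nearly equal means on all arrays; GCOS 1.0, per the submitters' processing notes). The signal algorithm is not given in the sources used here. From the deposited intensities log2(signal + 16) was computed. After removal of 57 control probe sets and the filter, limma 3.58.1 in R 4.3.3 (lmFit, eBayes) fitted 1 mean for each of the 6 groups over all 23 arrays. The 9 comparisons were adjusted by Benjamini-Hochberg over 19822 probe sets, with a threshold of 0.05, and intervals are at 95%. The fit was tested on simulated data with independent noise and no array that stood apart. Of 50 probe sets at each size, 6 were called at a change of 1, 21 at 2, 44 at 3 and 48 at 4. Among unchanged probe sets 6 were called. Precision is limited by 3 or 4 arrays a group; whether saturated signals were capped is not given in the sources used here.

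Gene symbols come from the platform annotation: 20832 probe sets had 1 symbol, 436 several and 9831 none. A gene outside the 9 is represented by 1 probe set. The 9 genes and all lists were chosen with earlier results of these data known. Named were all 9 genes, the list genes past the threshold (otherwise up to 2 with the smallest p), the 6 genes most correlated with Hmox1 and with Mt2A, and defining cell markers. Other settings tried were median centring, quantile normalization, pseudocounts of 1 and 64, a filter at the 75th percentile or none, trended and robust eBayes, array weights, RNA integrity as covariate, only the groups compared, and leaving out animals. Animal numbers differ between groups and pair no samples.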

Additional observations from a re-analysis of the deposited data

Results flagged for a closer look

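In 3 of 50 groups of 4 animals, a value lay far from the other 3 by Dixon's test at its 95% level. Chance alone flags about 1 in 20 such groups. In air at 144 h, Hmox1 was 9.08 in animal 22, against 7.75 to 7.96 in the others. In H2S at 144 h, Hmox1 was 10.31 in animal 25, against 8.50 to 8.72 in the others. In air at 24 h, Blvra was 6.50 in animal 18, against 8.03 to 8.23 in the others. Animals 18 and 22 are those whose arrays stand apart.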

How the results depend on the processing

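Of 1637 values of single genes under other settings, 1594 kept their side of the threshold, 34 fell below it, 9 came past it and 0 reversed a call; 153 changed sign while past the threshold in neither setting. The Mt2A change at 3 h kept its sign in all 14 settings and its call in 10. It lost the call with quantile normalization (2.62, adjusted p = 0.0954) and with RNA integrity as covariate (2.56, adjusted p = 0.770). The call was also lost on the 19 arrays that have such a number (2.34, adjusted p = 0.409) and with only the groups compared (2.91, adjusted p = 0.333). On leaving out 1 animal the Mt2A change ran from 2.55 to 3.30, with 3 of 8 calls kept. The Hmox1 change at 3 h came past the threshold with median centring (3.24, adjusted p = 0.0458), array weights (3.57), without animals 6, 14 and 18 (3.34), without animals 18 and 22 (3.84) and without RNA integrity numbers under 3 (3.84), and ran from 2.52 to 3.84 on leaving out 1 animal. It was 1.88 on the 19 arrays (limma adjusted p = 0.536) and 1.86 with the covariate on them (limma adjusted p = 0.929). The Akr1b8 call at 3 h was kept in 7 of 14 settings, with a lowest change of 2.50 (RNA integrity as covariate, limma adjusted p = 0.929). Some of these settings use fewer arrays, and the cause of the shifts was not tested.

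The count of these genes called at 3 h, 1 as reported, was 0 with quantile normalization, RNA integrity as covariate, the 19 arrays and only the groups compared, 2 with median centring, array weights and the 3 sets of animals left out, and 0 to 2 on leaving out 1 animal. Between 24 h and 3 h the count, also 1, was 0 with quantile normalization, RNA integrity as covariate, the 19 arrays and without animals 6, 14 and 18, 2 with array weights and without animals 18 and 22, and 0 to 1 on leaving out 1 animal. Between 6 h and 3 h it was 1 instead of 0 with array weights (Mt2A, -2.00, adjusted p = 0.0338). Over all probe sets the count at 3 h was 16, and ran from 0 with RNA integrity as covariate to 67 with array weights. Between 24 h and 3 h it was 15, and ran from 1 to 97. It ran from 0 to 68 at 6 h (1 as reported), 0 to 52 at 24 h (2), 0 to 2 at 144 h (0), 0 to 110 between 6 h and 3 h (1) and 0 to 93 between 24 h and 6 h (2). Median centring moved the median change of all probe sets at 3 h from 0.09 to 0.27, and the sign of no called change. No paired analysis was possible because the groups share no animal numbers.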
